A study of Homo sapiens with 12 samples.

Results

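The integrated stress response and the unfolded protein response are linked programs by which cells adjust protein synthesis and folding. Kinases that sense amino acid shortage, heme shortage or misfolded protein in the endoplasmic reticulum (ER) phosphorylate the initiation factor eIF2alpha, which lowers translation in general and raises translation of the transcription factor ATF4. ATF4 and its partners then transcribe genes for amino acid transport and synthesis, tRNA charging and cell fate, while the ER sensors IRE1 (ERN1) and ATF6 act through XBP1 and other factors on chaperones and on the degradation of misfolded ER proteins. The 34 genes described here are sensors, transcription factors and well known target genes of these programs, chosen by name from 60671 genes in a table of RNA-seq read counts. All 34 were present in the table, and all 34 were among the 18626 genes that passed the filter on low counts.

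The study compared 3 human leukemia lines with 4 samples each. K562 is the parental line, K/VP.5 is a clone of K562 cells selected by intermittent and then continuous etoposide exposure for resistance to that topoisomerase poison, and K562/SSedit-2 is a clone of K562 in which CRISPR/Cas9 with homology-directed repair silenced a splice site of the topoisomerase gene TOP2A on 2 of its 3 alleles. All were grown in the same serum-containing medium, and no drug treatment is given for the RNA samples. Each derived line is a single clone, so what differs between lines includes what differs between clones, and nothing says whether the replicates were separate cultures, so p-values measure the spread between these samples only.

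Library totals ranged from 28981722 to 43648830 counts, and levels are given as CPM, counts scaled to library size (per 1000000). TOP2A itself read 352 to 488 CPM in K562, 268 to 282 CPM in K/VP.5 and 177 to 208 CPM in K562/SSedit-2. Of 12 erythroid genes expected in K562 cells, 11 reached 1 CPM in K562 (HBE1 did not) and 12 in each derived line, with a summed level of 3915 to 5004 CPM in K562, 3408 to 3636 CPM in K/VP.5 and 5216 to 5739 CPM in K562/SSedit-2. The lymphoid markers CD3E, CD2, CD79A and MS4A1, the epithelial keratins KRT5 and KRT14 and the fibroblast markers PDGFRA and DCN were under 1 CPM in every line. The lymphoid list summed to 9.35 to 13.0 CPM in K/VP.5, below the 25.5 to 53.2 CPM of K562 and the 38.8 to 55.0 CPM of K562/SSedit-2, and the epithelial list to 122 to 137, 156 to 196 and 167 to 183 CPM in the same order. The fibroblast list summed to 46.4 to 58.3 CPM in K/VP.5 and to 4.47 to 11.9 CPM in the other lines. These sums moved with the lines, and their part in the results was not tested. K562 replicate 1 stood apart, with a mean correlation of 0.986 to its own line against 0.990 to 0.994 for the others and a mitochondrial share of 0.700% against at most 0.471%.

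ATF4 and UPR target promoters carry short response elements, and the sites found in the 250 bases before the RefSeq start of each gene are shown because such elements are how the factors in the list recognise their target genes. RefSeq promoters were at hand for 30 of the 34 genes (build GRCh38.p14). The CEBP-ATF response element searched was TGATGNAA, the element bound by ATF6 and XBP1 was TGACGTGG (UPRE), and the ER stress response element (ERSE) was CCAAT and CCACG with 9 bases between, all on both strands. UPRE also holds the reverse complement of the last 5 bases of ERSE. Sequences are written 5′ to 3′ on the strand of the gene. Capitals mark the motif, which appears as its reverse complement in CHAC1, HERPUD1 and ALDH18A1.
ATF3 (chr1:212565186-212565253, plus strand): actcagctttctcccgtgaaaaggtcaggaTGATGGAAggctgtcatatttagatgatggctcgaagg
ASNS (chr7:97872458-97872487, minus strand): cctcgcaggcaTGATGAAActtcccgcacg
CHAC1 (chr15:40953251-40953280, plus strand): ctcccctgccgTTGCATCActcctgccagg
HERPUD1 (chr16:56931936-56932003, plus strand): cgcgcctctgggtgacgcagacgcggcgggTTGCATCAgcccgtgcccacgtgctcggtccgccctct
HYOU1 (chr11:119057356-119057423, minus strand): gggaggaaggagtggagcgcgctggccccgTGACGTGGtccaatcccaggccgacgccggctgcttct
ALDH18A1 (chr10:95656734-95656801, minus strand): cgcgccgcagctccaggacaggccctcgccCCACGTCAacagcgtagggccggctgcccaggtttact
XBP1 (chr22:28800598-28800626, minus strand): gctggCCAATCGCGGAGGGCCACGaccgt
The ATF element was present in 4 of the 30 promoters (13.3%), against 2.22% of 15326 protein-coding promoters. UPRE was in 2 of the 30 (6.67%), against 0.692%, and ERSE in 1 (3.33%), against 0.124%. A match in these letters is a description, not a bound site. The genes were chosen by name as well known genes of these programs, so a higher share among them may come from that choice and is not a test. The ASNS and CHAC1 windows lie in annotated exons of other transcripts of those genes in GENCODE 44, and the other windows overlap no annotated exon.

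Levels per kilobase of the canonical transcript ranged widely in K562. The chaperone cofactor SDF2L1 was highest at 423 CPM per kb, followed by ATF4 at 196 and PDIA4, a disulfide isomerase of the ER, at 164 CPM per kb. ASNS was lowest at 0.790 CPM per kb, below CHAC1 at 2.25 and the sensor kinase ERN1 at 2.68 CPM per kb. ASNS shares 49.3% of its annotated exon length with another gene model on the same strand, whose own count was 4 to 16, so reads that fit both may have been dropped and its level is uncertain.

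**Figure D1:**
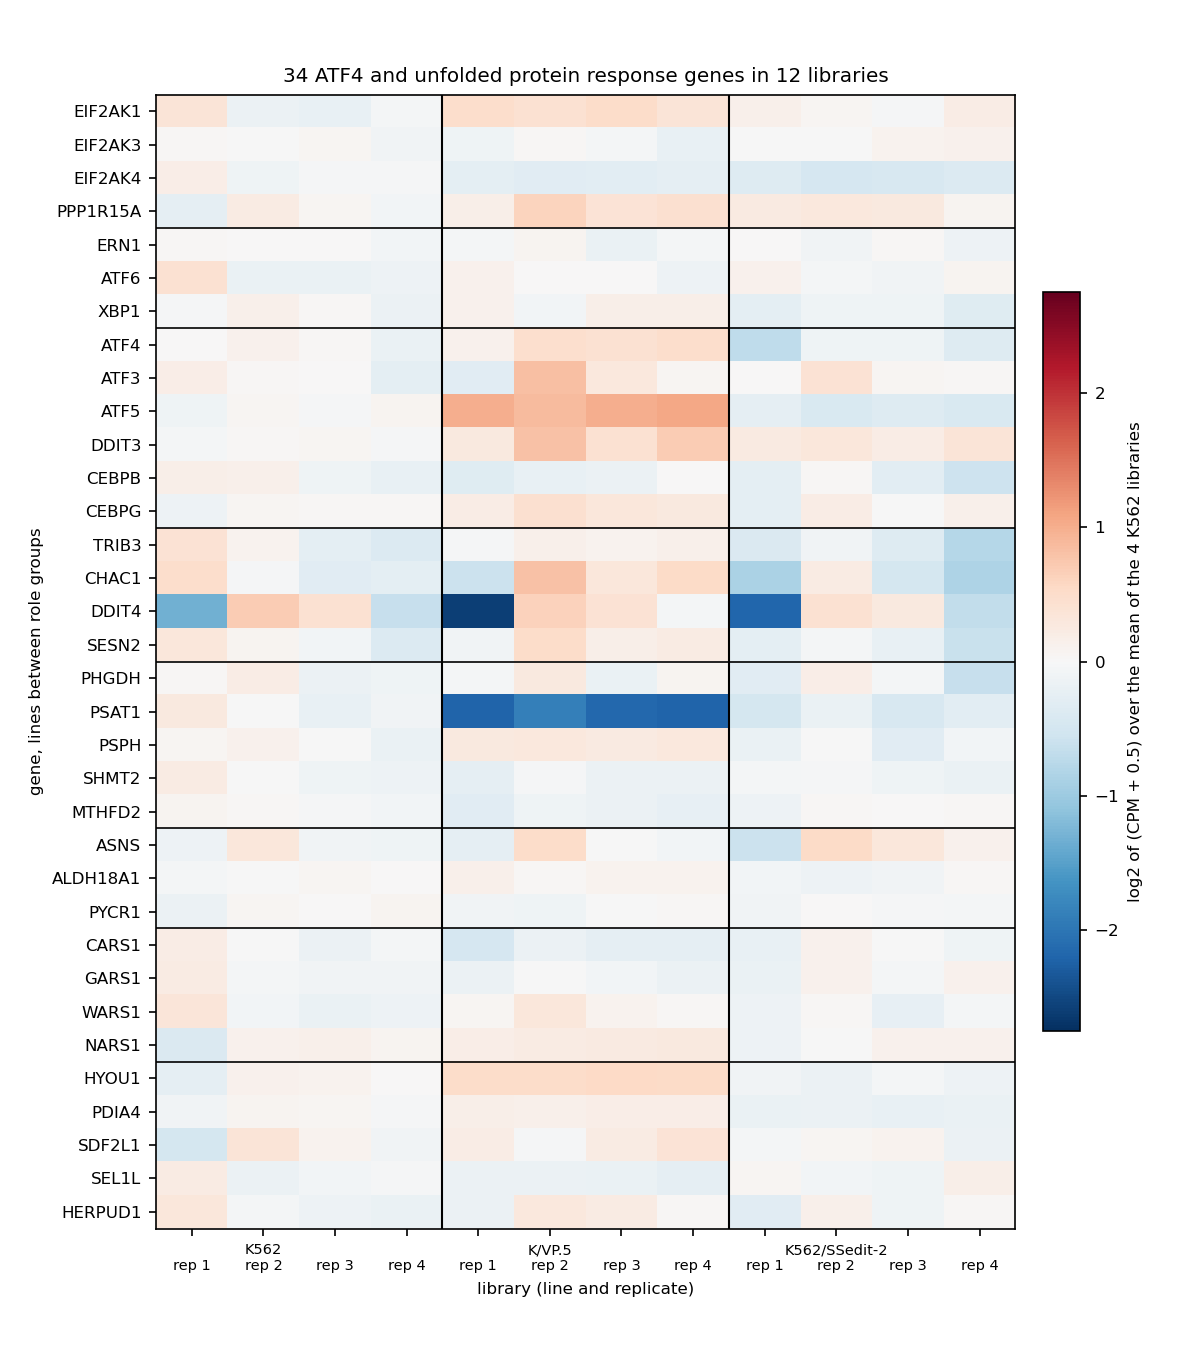
Heat map of the 34 genes (rows, grouped by role) in the 12 libraries (columns), coloured by log2 of CPM plus 0.5 over the mean of the 4 K562 libraries. PSAT1 is low in all 4 K/VP.5 libraries and ATF5 high in the same 4, while DDIT4 changes between replicates of every line more than it changes between lines.

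The first comparison asked how the etoposide-selected clone differs from its parent. In K/VP.5, the main changes among these genes were a loss of most PSAT1 message and a gain of ATF5 close to the 2-fold cutoff, with smaller gains of ATF4, DDIT3, EIF2AK1 and HYOU1. At an adjusted p under 0.1 (edgeR quasi-likelihood F test over all 18626 genes), 10 of the 34 genes rose, 5 fell and 19 did not pass. Over all genes tested 26.2% rose and 26.1% fell, 52.3% in all, against 44.1% of the 34, so the share of changed genes was not above that of the transcriptome. That background includes genes of low level. Of the 14238 genes with at least 1 CPM in at least 4 samples, fitted alone, 4301 were called higher and 4179 lower. With upper-quartile scaling the split over all genes was 5777 higher and 4191 lower, in place of 4882 and 4865, and that of the members 13 and 3. The median log2 fold change was 0.09 over the 34 and 0.01 over all genes. At least 2-fold change was met by 1 gene, PSAT1, against 15.6% of all genes, and the ranges of the 4 and 4 libraries did not overlap for 14 genes, against 43.0% of all genes. Without K562 replicate 1 the number called was 17 instead of 15, against 52.4% of all genes.

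PSAT1 (ENSG00000135069, chr9:78297125-78330093 of GRCh38), which makes phosphoserine in the serine synthesis pathway, showed the clearest difference. It read 116, 94.6, 82.5 and 90.1 CPM in K562 replicates 1 to 4 and 20.3, 25.5, 21.0 and 20.4 CPM in K/VP.5. Every K/VP.5 library lay below every K562 library, and the fitted level was 4.39-fold lower (log2 fold change -2.13 ± 0.11 SE, adjusted p = 1.33e-10). In RNA of whole cultures, less message per cell and fewer cells with the message cannot be told apart. The annotation holds 4 pseudogenes each of PSAT1 and ATF4 (PSAT1P1 and ATF4P1, for example), and how reads that fit both were counted is not given in the sources used here. PHGDH, the enzyme before PSAT1, read 15.8 to 20.6 CPM in K562 and 15.7 to 21.6 CPM in K/VP.5, ranges that overlap almost entirely (log2 fold change 0.05, adjusted p = 0.831). PSPH, the phosphatase after it, rose from 21.7 ± 1.93 (SD, n = 4) to 26.3 ± 0.385 CPM (log2 fold change 0.28, adjusted p = 0.0111). MTHFD2, a mitochondrial folate enzyme, fell (log2 fold change -0.20, adjusted p = 0.0159), but not with upper-quartile scaling, and SHMT2, which links serine to glycine in mitochondria, was at -0.15 and did not pass (adjusted p = 0.133).

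Among the transcription factors 4 of 6 rose and none fell, where 26.2% of all genes rose and 26.1% fell. ATF5 (ENSG00000169136, chr19:49928702-49933935), a factor related to ATF4 and translated under the same control, read 25.8, 29.2, 27.4 and 29.4 CPM in K562 and 56.2, 51.6, 56.5 and 58.6 CPM in K/VP.5. The lines did not overlap and the fitted ratio was 1.99 (log2 fold change 0.99 ± 0.07, adjusted p = 8.7e-09), just short of the 2-fold cutoff, which it passed with upper-quartile scaling, with a filter of 1 CPM and without K/VP.5 replicate 2. ATF5 overlaps exons of NUP62 and IL4I1 on the other strand, and the strand setting of the counting is not given in the sources used here. ATF4 (ENSG00000128272, chr22:39519695-39522683) read 282, 303, 285 and 244 CPM in K562 and 304, 385, 373 and 388 CPM in K/VP.5. The lowest K/VP.5 library, replicate 1, lay just above the highest K562 library, and the log2 fold change was 0.38 ± 0.11 (adjusted p = 0.0127). DDIT3 (CHOP), a factor linked to cell death under ER stress, rose from 7.40 ± 0.310 to 11.1 ± 1.98 CPM (log2 fold change 0.59, adjusted p = 0.000559). Its exons overlap those of MARS1 and MBD6 on the other strand. CEBPG, a partner of ATF4, rose by 0.31 (adjusted p = 0.0124). ATF3 (0.30, adjusted p = 0.258) and CEBPB (-0.17, adjusted p = 0.269) did not pass.

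**Figure D2:**
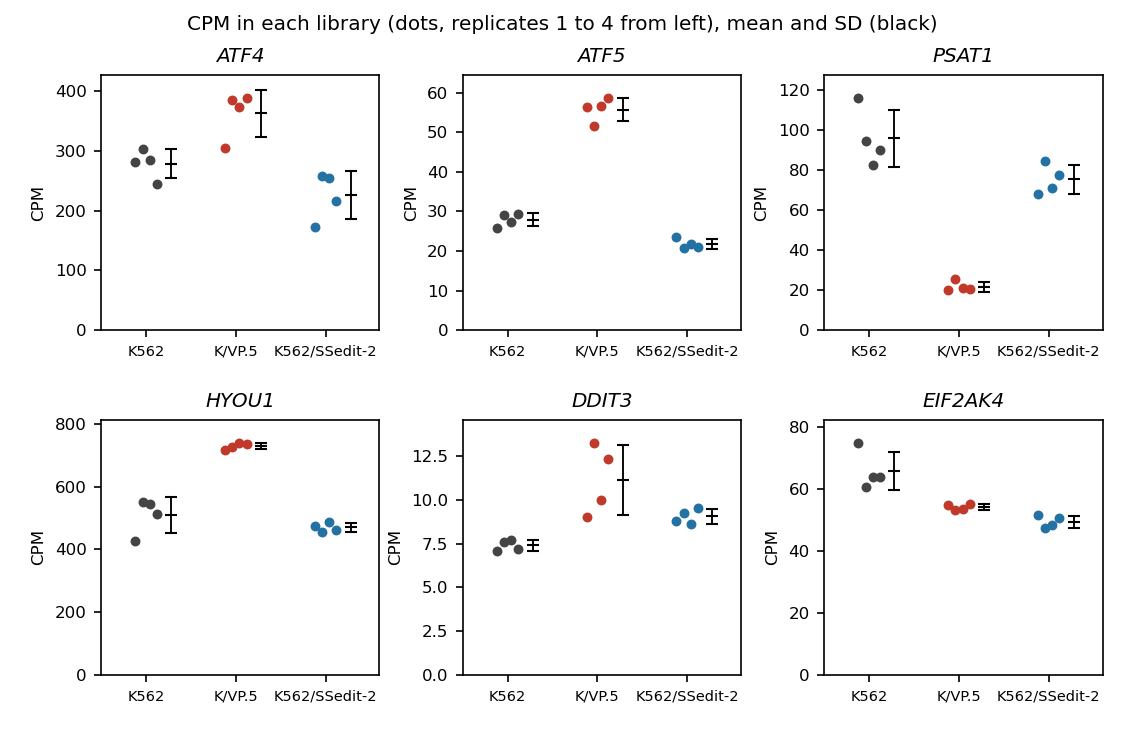
CPM (vertical axes, from 0) of ATF4, ATF5, PSAT1, HYOU1, DDIT3 and EIF2AK4 in each of the 12 libraries, with mean and SD of each line in black. ATF5 lies at 51.6 to 58.6 CPM in K/VP.5 against 20.7 to 29.4 CPM in the other lines, and PSAT1 at 20.3 to 25.5 CPM against 68.1 to 116 CPM.

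Of the genes that act on eIF2alpha, EIF2AK1 (the heme-regulated kinase HRI) read 166, 116, 114 and 126 CPM in K562 and 183, 174, 185 and 168 CPM in K/VP.5. The highest K562 library, replicate 1, lay just under the lowest of K/VP.5, and the gene rose by 0.44 ± 0.10 on the log2 scale (adjusted p = 0.0018). EIF2AK4 (GCN2, the kinase that senses uncharged tRNA) went the other way, from 74.8, 60.6, 63.8 and 63.9 CPM to 54.7, 53.1, 53.6 and 55.1 CPM (log2 fold change -0.28 ± 0.07, adjusted p = 0.0034), with no overlap between the lines. PPP1R15A (GADD34), the subunit that directs a phosphatase back to eIF2alpha, rose by 0.41 (adjusted p = 0.00353), although its ranges overlapped. EIF2AK3 (PERK), the ER kinase, was at -0.09 and did not pass. None of the ER sensors and XBP1 passed: ERN1 was at -0.05, ATF6 at 0.00 and XBP1 at 0.10, the last with 99.7, 113, 105 and 91.0 CPM in K562 and 111, 96.8, 114 and 115 CPM in K/VP.5. Read counts per gene measure message, not phosphorylation or translation, so these values do not show whether the sensors were active.

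The ER proteins split. HYOU1 (ENSG00000149428, chr11:119044188-119057227), an ER chaperone that carries the UPRE shown above, read 427, 552, 544 and 514 CPM in K562 and 718, 727, 739.6 and 735 CPM in K/VP.5. It was higher in every K/VP.5 library, with a fitted ratio of 1.43 (log2 fold change 0.52 ± 0.07, adjusted p = 1.59e-05). PDIA4 rose by 0.16 (adjusted p = 0.0212; 0.10 without K562 replicate 4 and 0.24 with no filter), with 425, 475, 469 and 442 CPM against 504, 495, 514 and 514 CPM. SEL1L, the adaptor of the ER ubiquitin ligase, fell by 0.19 (adjusted p = 0.0871), a call lost without K562 replicate 1 (log2 fold change -0.13, adjusted p = 0.17) and without K/VP.5 replicate 2, 3 or 4 (adjusted p = 0.11, 0.13 and 0.19). Upper-quartile scaling (log2 fold change -0.12, adjusted p = 0.21) and limma voom (adjusted p = 0.11) ended it too. SDF2L1 (0.20, adjusted p = 0.231) and HERPUD1 (0.11, adjusted p = 0.541) did not pass.

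Of the 4 tRNA synthetases among the members 1 rose and 1 fell, a share close to the 52.3% called over all genes. CARS1, which charges tRNA with cysteine, fell from 75.5, 64.1, 58.3 and 62.4 CPM to 47.3, 58.2, 54.4 and 55.0 CPM (log2 fold change -0.28 ± 0.09, adjusted p = 0.0215). NARS1, for asparagine, rose by 0.23 (adjusted p = 0.0688), but K562 replicate 1 read 236 CPM against 329 to 343 CPM in the other K562 libraries, and leaving that library out gave 0.10 (adjusted p = 0.22). The call was also lost without any one of the K/VP.5 libraries (adjusted p = 0.12 to 0.15) and with only the 2 lines in the fit (adjusted p = 0.13). WARS1 (0.12) and GARS1 (-0.10) did not pass. In the asparagine and proline group none passed, with ALDH18A1 at 0.09 (adjusted p = 0.198; 0.16 and adjusted p = 0.049 with upper-quartile scaling), PYCR1 at -0.05 and ASNS at 0.09. The stress effectors did not pass either. TRIB3, a pseudokinase, was at 0.09, the mTORC1 inhibitors SESN2 and DDIT4 at 0.22 and 0.00, and CHAC1, which degrades glutathione, at 0.39 ± 0.32. CHAC1 read 4.95, 3.31, 2.66 and 2.77 CPM in K562 and 2.12, 6.41, 4.37 and 5.12 CPM in K/VP.5, so that the K/VP.5 libraries lay on both sides of the K562 libraries.

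**Figure D3:**
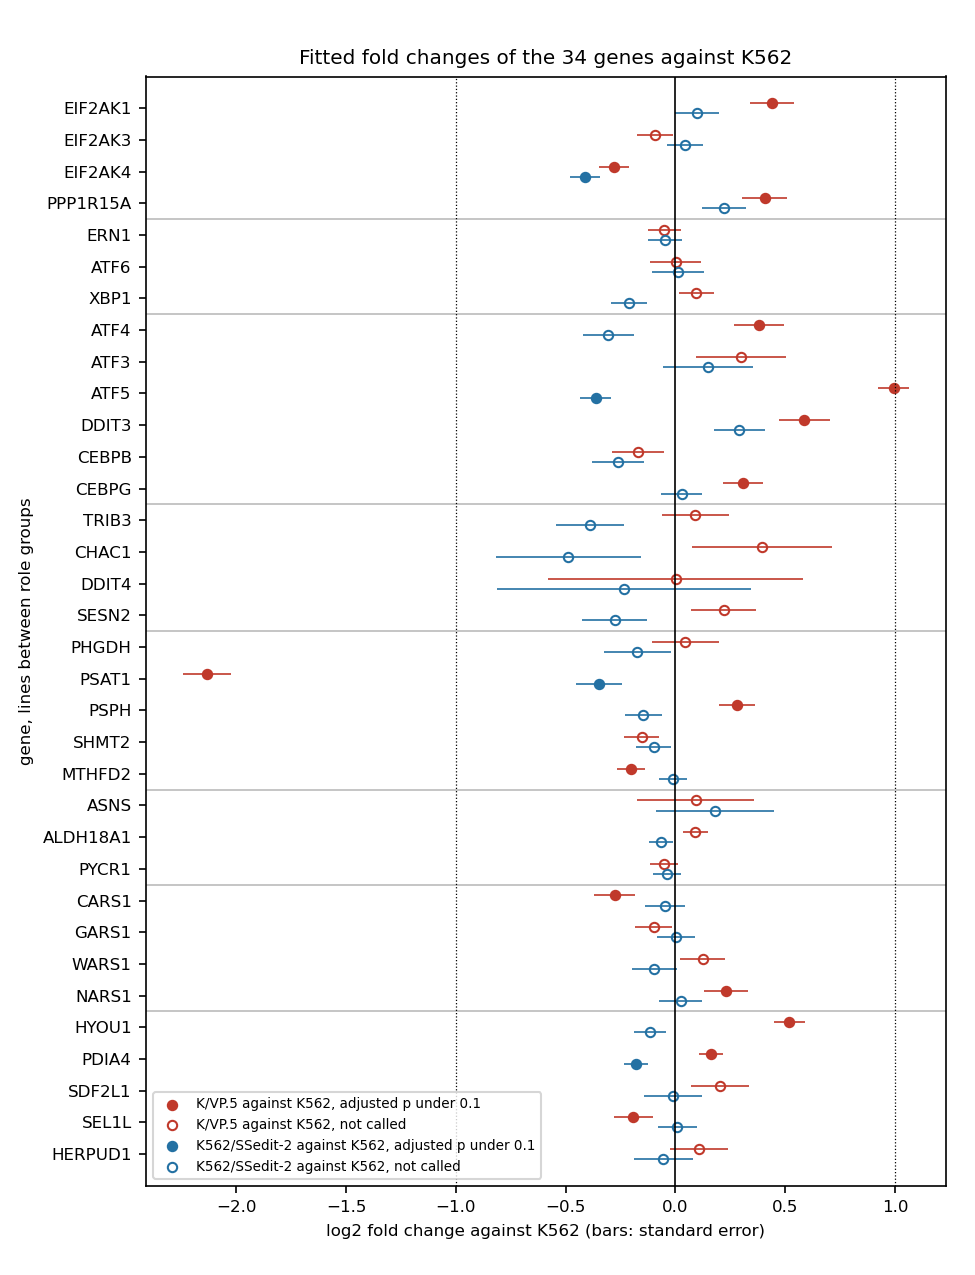
Fitted log2 fold change against K562 (horizontal axis, bars are standard errors) of each of the 34 genes in K/VP.5 (red) and K562/SSedit-2 (blue), filled where the adjusted p was under 0.1 and with dotted lines at a 2-fold change. Both comparisons share the 4 K562 libraries. PSAT1 in K/VP.5 at -2.13 is the only point beyond the dotted lines, and ATF5 in K/VP.5 sits on one.

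The second comparison asked what differs in the clone with the edited TOP2A splice site. Fewer of the genes differed: none rose, 4 fell (EIF2AK4, ATF5, PSAT1 and PDIA4) and 30 did not pass. Of all tested genes 4.86% rose and 7.79% fell, 12.6% together, against 11.8% of the 34. Of the 14238 genes with at least 1 CPM in at least 4 samples, fitted alone, 1118 were called higher and 1445 lower. With upper-quartile scaling the split over all genes was 1200 higher and 1241 lower, in place of 905 and 1451. No member changed 2-fold, against 2.06% of all genes, and the libraries of the lines were apart for 4 of the 34, against 13.2% of all genes. The median log2 fold change was -0.06 over the 34 and -0.01 over all genes. The number called depended on single libraries: it was 8 without K562 replicate 1 (19.5% of all genes), 7 without K562 replicate 4 (13.1%), 2 without K562 replicate 2 (7.12%), and 2 without K562/SSedit-2 replicate 1 (11.3%) or replicate 3 (9.70%). Same-numbered samples of these lines deviated together in these data, although the labels give no pairing. With the number as a block 8 genes were called, while calls over all genes went from 12.6% to 16.4%.

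EIF2AK4 had 51.5, 47.4, 48.2 and 50.6 CPM in K562/SSedit-2, all below the lowest K562 library at 60.6 CPM (log2 fold change -0.41 ± 0.07, adjusted p = 0.00138). ATF5 had 23.5, 20.7, 21.8 and 20.9 CPM, again below every K562 library (-0.36 ± 0.07, adjusted p = 0.00494), the opposite side from K/VP.5. PSAT1 had 68.1, 84.4, 70.8 and 77.7 CPM, of which 1 library lay above the lowest of K562 (-0.35 ± 0.10, adjusted p = 0.0534). The call was lost without K562 replicate 2 (adjusted p = 0.11) and without K562/SSedit-2 replicate 1 or 3 (adjusted p = 0.13 each). PDIA4 had 399, 407, 395 and 399.7 CPM (-0.18 ± 0.05, adjusted p = 0.0528), below all K562 libraries. Its call was lost with upper-quartile scaling, no filter or only the 2 lines, and without K562 replicate 2 or 3 or any one of the K562/SSedit-2 libraries (adjusted p = 0.11 to 0.18). EIF2AK4 and ATF5 kept their calls in every leave-one-out fit.

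ATF4 itself read 172, 258, 255 and 216 CPM in K562/SSedit-2 and overlapped K562. Its log2 fold change was -0.31 ± 0.12 (adjusted p = 0.118), and with the replicate block it was -0.32 (adjusted p = 0.0321), with the K562/SSedit-2 library lower at each of the 4 replicate numbers. Without K562/SSedit-2 replicate 1 it was -0.20 (adjusted p = 0.27), and the adjusted p without 1 library ran from 0.077 to 0.29. The block also brought PPP1R15A (0.23, adjusted p = 0.0672), DDIT3 (0.29, adjusted p = 0.0956) and TRIB3 (-0.38, adjusted p = 0.0748) past the threshold. DDIT3 was the 1 gene whose K562/SSedit-2 libraries, at 8.60 to 9.55 CPM, all lay above K562, at 7.07 to 7.72 CPM. XBP1, with 85.2, 93.6, 93.8 and 80.6 CPM, was at -0.21 (adjusted p = 0.126), and HYOU1, with 474, 455, 488 and 464 CPM, at -0.12 (adjusted p = 0.373). CHAC1, with 1.65, 4.07, 2.31 and 1.67 CPM, was at -0.49 ± 0.33 and SESN2 at -0.28, neither past the test. ASNS (0.18), WARS1 (-0.10; 243, 274, 228 and 260.1 CPM against 337, 257, 237 and 244 CPM in K562) and CARS1 (-0.05) did not pass. The other 19 genes lay between -0.26, for CEBPB, and 0.15, for ATF3.

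The derived clones were also compared with each other, on the libraries already used against K562. In K562/SSedit-2 relative to K/VP.5, 4 of the 34 genes rose and 15 fell, 55.9% in all. Over all genes 26.2% rose and 27.8% fell, 54.0% together. The median log2 fold change was -0.20 over the 34 against -0.01 over all genes, 2 genes changed at least 2-fold (15.8% of all genes), and ranges were apart for 14 genes (47.4% of all genes). PSAT1 was higher in K562/SSedit-2 (log2 fold change 1.79 ± 0.11, adjusted p = 1.19e-09) and ATF5 was lower (-1.36 ± 0.07, adjusted p = 1.95e-10), each with no overlap. ATF4 was lower by 0.69 ± 0.12 on the log2 scale (adjusted p = 0.000116), lower in all 4 libraries than in any K/VP.5 library. HYOU1 fell by 0.63 (adjusted p = 1.69e-06), PSPH by 0.43, PDIA4 by 0.34, EIF2AK1 by 0.34 and XBP1 by 0.31. The stress effectors SESN2 (-0.50), TRIB3 (-0.48) and CHAC1 (-0.88 ± 0.33, adjusted p = 0.0369) also fell, the last not without K/VP.5 replicate 2 (adjusted p = 0.15) or K562/SSedit-2 replicate 1 (adjusted p = 0.12) or 4 (adjusted p = 0.10). ALDH18A1 fell by 0.16, with 245, 253, 264 and 257 CPM in K562, 279, 262, 271 and 273 CPM in K/VP.5 and 243, 232, 239 and 259 CPM in K562/SSedit-2. DDIT3 (-0.30), CEBPG (-0.28), WARS1 (-0.22) and NARS1 (-0.21) made up the rest of those that fell. CARS1 rose by 0.23 (adjusted p = 0.0505) to 56.4, 70.3, 65.0 and 60.3 CPM, and MTHFD2 and SEL1L rose by 0.19 and 0.20. Several of these calls rested on single libraries. Among K/VP.5 libraries, DDIT3 and CEBPG were lost without replicate 2, DDIT3 and SEL1L without replicate 4, ALDH18A1 without replicate 1 or 3, WARS1 without replicate 1, 2 or 3, and NARS1 without any one. Among K562/SSedit-2 libraries, DDIT3, ALDH18A1 and WARS1 were lost without replicate 1 or 3, CEBPG without replicate 1, ALDH18A1 and CARS1 without replicate 2, SEL1L without replicate 4, and NARS1 without any one. Their adjusted p then was 0.10 to 0.33.

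DDIT4 (REDD1, ENSG00000168209, chr10:72273919-72276036), an inhibitor of mTORC1 that responds to low oxygen as well as to ATF4, passed the test in no comparison (log2 fold changes 0.00, -0.23 and -0.23; with no filter the last pair were -0.25 and -0.22, with adjusted p = 0.046 and 0.034) but had the widest spread within lines. It read 48.7, 197, 163 and 78.4 CPM in K562 replicates 1 to 4, 19.9, 189, 161 and 118 CPM in K/VP.5 and 26.5, 164, 148 and 76.3 CPM in K562/SSedit-2. In all 3 lines replicate 2 was highest, then 3, then 4, and replicate 1 was lowest, and the highest was 4.05 times the lowest in K562, 9.49 times in K/VP.5 and 6.20 times in the edited clone. The pooled SD within lines of log2(CPM + 0.5) was 1.23, the largest of all 18626 tested genes, of which the next had 0.872. DDIT4 was singled out after its values were seen. It stayed first with an added 2 or 5 CPM, with DESeq2's size factors and without any single library. At the same replicate number K562/SSedit-2 was below K562 in 4 of 4 pairs, with ratios of 0.543, 0.832, 0.907 and 0.974, but with the block the log2 fold change of -0.35 did not pass (adjusted p = 0.259).

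**Figure D4:**
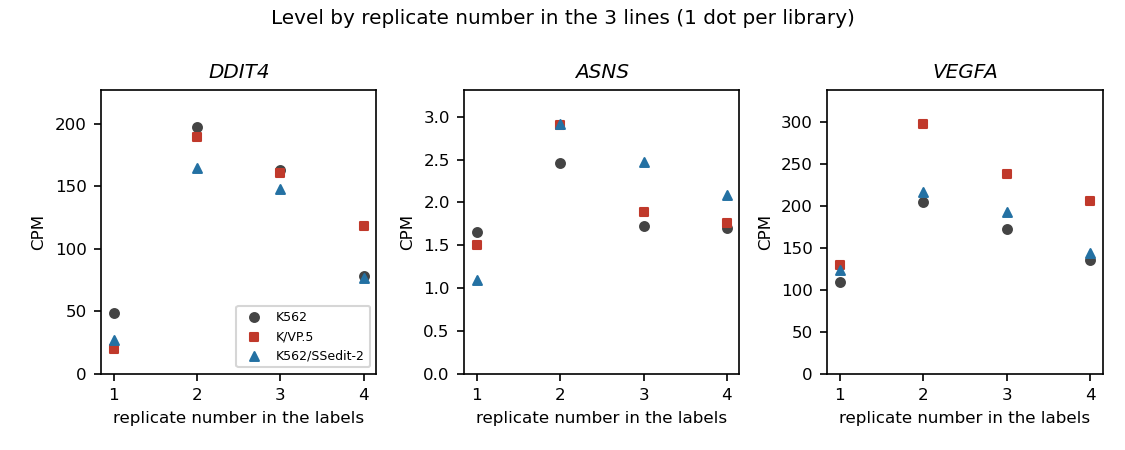
CPM (vertical axes, from 0) by replicate number in the labels (horizontal axes) for DDIT4, ASNS and VEGFA, with a symbol for each of the 3 lines. In each line the order from high to low is replicate 2, 3, 4 and 1, and DDIT4 spans 19.9 to 197 CPM.

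ASNS, which makes asparagine, had the same order of replicate numbers in all 3 lines by CPM, but at far lower levels, with 1.65, 2.46, 1.72 and 1.70 CPM in K562, 1.5, 2.90, 1.88 and 1.76 CPM in K/VP.5 and 1.09, 2.92, 2.47 and 2.09 CPM in K562/SSedit-2. In K562 replicates 1, 3 and 4 rest on 60, 64 and 70 counts and differ by less than counting error, so that the order among those libraries is not resolved at this depth. Any one order shared by the 3 lines occurred in 2 of the 34 genes (5.88%) and in 97 of all genes (0.521%), a comparison that rests on ASNS beside DDIT4, and the order seen in DDIT4 in 9 of all genes. The same replicate number held the highest value in every line for 6 of the 34 genes (17.6%), namely PPP1R15A, ATF6, CEBPG, DDIT4, ASNS and PHGDH, against 11.4% of all genes and 13.4% of those of at least 10 CPM. It held the lowest value in every line for 5 (14.7%), namely EIF2AK4, CEBPG, DDIT4, ASNS and NARS1, against 10.8% of all genes and 10.0% of those of at least 10 CPM. What the replicate numbers mark is not given in the labels, so culture, harvest and library cannot be told apart.

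The other stress effectors and factors varied less than DDIT4, although several varied more than most genes. After DDIT4, the SD within lines was 0.500 for CHAC1, 0.359 for ASNS, 0.316 for ATF3, 0.268 for TRIB3 and 0.256 for SESN2. The SD of CHAC1, ASNS and ATF3 was above that of 99.6%, 97.2% and 94.7% of all tested genes. For TRIB3 and SESN2 it was above that of 95.8% and 95.0% of the tested genes of at least 10 CPM. ATF4 had 0.199 and its libraries at replicate 1 were the lowest in K/VP.5 and K562/SSedit-2 but not in K562. The most even members were PDIA4 at 0.0468 and the proline enzyme ALDH18A1 at 0.0506. The median was 0.156 over the 34, 0.164 over all genes and 0.119 over the 8882 tested genes of at least 10 CPM.

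**Figure D5:**
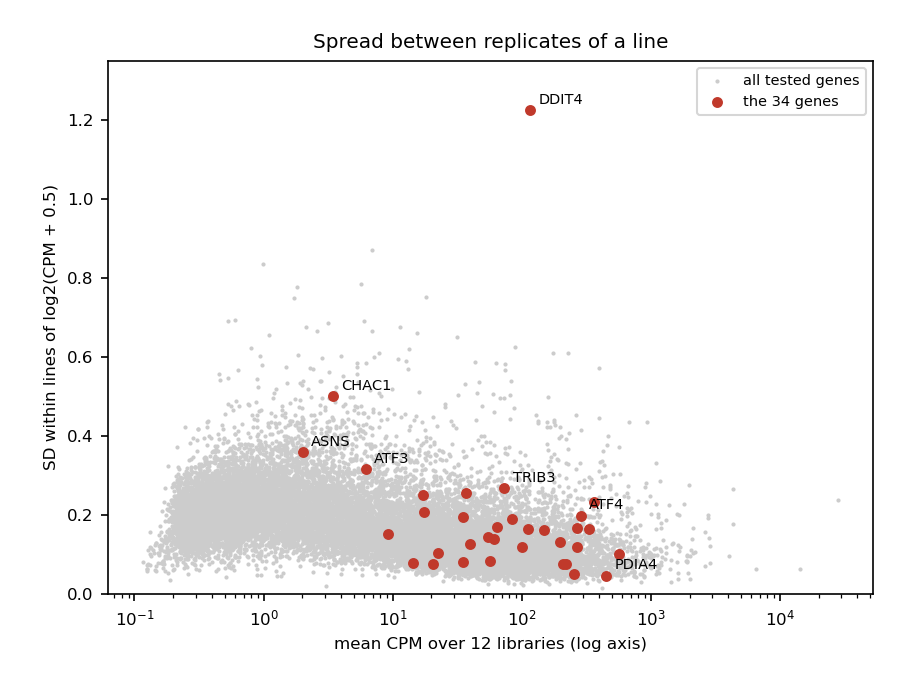
Pooled SD within lines of log2(CPM + 0.5) (vertical axis) against mean CPM over the 12 libraries (horizontal, log axis) for all tested genes (grey) and the 34 genes (red). DDIT4 at 1.23 lies above all other genes, CHAC1 is at 0.500, and PDIA4 at 0.0468 lies near the lower edge.

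Other genes of the pathways were read from 4 lists. Of 36 further ATF4 target genes, 32 were tested (VLDLR, NUPR1, RAB32 and HMOX1 were too low), and in K/VP.5 against K562 13 rose and 9 fell (68.8% of the 32, against 52.3% of all genes), with a median log2 fold change of 0.11. The cystine and leucine transporter subunit SLC3A2 fell from 862 ± 27.9 to 311 ± 21.6 CPM (log2 fold change -1.47 ± 0.06, adjusted p = 7.86e-12). KLHL24 (-1.14) and the mitochondrial glutamate carrier SLC25A22 (-1.06) also fell at least 2-fold. The serine and alanine transporter SLC1A4 rose from 4.36 ± 1.21 to 14.4 ± 1.29 CPM (1.72 ± 0.15, adjusted p = 7.32e-08), and the secreted stress factor GDF15 from 22.0 ± 5.65 to 93.5 ± 30.6 CPM (2.09 ± 0.23, adjusted p = 1.35e-06). LAMP3, under 1 CPM, was the remaining gene past 2-fold.

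In K562/SSedit-2 against K562, 2 of these 32 rose and 3 fell (15.6%, against 12.6% of all genes), with a median of -0.05. SLC1A4 (0.80, adjusted p = 0.00313) and the growth arrest gene GADD45A (0.58, adjusted p = 0.00215) rose. The alanine aminotransferase GPT2 (-0.61, adjusted p = 0.00345), SLC7A5 (-0.31, adjusted p = 0.0407) and SLC25A22 (-0.31, adjusted p = 0.0306) fell, the last pair not without K562 replicate 2 or K562/SSedit-2 replicate 4. With the replicate block 10 of the 32 were called, against 16.4% of all genes. Against K/VP.5, 12 rose and 13 fell (78.1%, against 54.0% of all genes), including SLC3A2 at 1.41, KLHL24 at 1.27 and GDF15 at -1.62, with a median of -0.16. JDP2 and LAMP3, both under 1 CPM, were the others past 2-fold.

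Of 42 further ER chaperone and degradation genes, 41 were tested (WFS1 was not). In K/VP.5 against K562 18 rose and 8 fell (63.4%, against 52.3% of all genes), with a median of 0.12. TXNDC5 fell from 8.95 to 4.11 CPM (-1.13), and the COPII coat gene SEC24D rose from 7.45 ± 1.64 to 18.7 ± 1.58 CPM (1.33 ± 0.15, adjusted p = 1.88e-06). In K562/SSedit-2 against K562 3 rose (DNAJB11 at 0.29, SEC61B at 0.43 and SPCS2 at 0.25) and 2 fell (MBTPS1 at -0.18 and TXNDC5 at -0.69), 12.2% against 12.6% of all genes, with a median of 0.00. Against K/VP.5 11 rose and 19 fell (73.2%, against 54.0% of all genes, median -0.12), with the signal peptidase subunit SPCS2 at 1.06 and SEC24D at -1.35, and with ERO1B, near 1 CPM, past 2-fold at -1.14. The 16 further cytosolic tRNA synthetases had 5 that rose and 2 that fell in K/VP.5 (43.8%, against 52.3% of all genes), with SARS1 the largest at 0.63. The edited clone had 1 that rose against K562, SARS1 at 0.32, and 1 that fell, VARS1 at -0.18 (12.5%, against 12.6%), and against K/VP.5 3 rose and 5 fell (8 of the 16, against 54.0% of all genes). Medians of this list were -0.02, 0.00 and 0.04 in the order of the comparisons.

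The 18 genes for eIF2, eIF2B and their regulators had 2 called higher (EIF2B3 at 0.24 and IMPACT) and 7 that fell in K/VP.5 (9 of the 18, against 52.3% of all genes), with a median of -0.07. IMPACT had passed the filter on low counts through K/VP.5 alone. Its calls are part of the counts of this list in all 3 comparisons, but none of them is read as a result. In K562/SSedit-2 2 were called higher than in K562 (EIF2S1 at 0.19 and PPP1CB at 0.18), and with IMPACT counted 3 of the 18 passed (16.7%, against 12.6% of all genes). The call of IMPACT there was between lines near or at 0 counts, so it is not read as a change. The median was 0.01, while against K/VP.5 8 rose and 3 fell with IMPACT counted (61.1%, against 54.0%), with a median of 0.13. Of the calls named for K562/SSedit-2 against K562 in these last 3 lists, SEC61B and SARS1 held without any one library, and DNAJB11, SPCS2, MBTPS1, TXNDC5, VARS1, EIF2S1 and PPP1CB were each lost without at least 1. None of the eIF2 list, IMPACT included, was called without K562 replicate 2 or with only the 2 lines in the fit. IMPACT, a protein that restrains GCN2, was named after its values were seen. It had 316, 274, 269 and 191 counts in K/VP.5, 1, 5, 1 and 1 counts in K562 and none in the 4 libraries of K562/SSedit-2. Over each line its level was 7.41 CPM in K/VP.5 and 0.0506 CPM in K562, and it was at least 342.6-fold higher in K/VP.5 than in K562/SSedit-2, taking 3 counts over the line as the floor. These levels are a description, not a test. With so few counts in K562 and none in the edited clone, no fold is given between them.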

How the data were processed

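RNA from 12 samples was sequenced, and per the labels the authors aligned reads to GRCh38 with HISAT2 and counted them per gene with featureCounts. The deposited values are raw read counts. The annotation release and the strand setting are not given in the sources used here. Gene names came from GENCODE 44, which held 60401 of the 60671 IDs. Counts were filtered with filterByExpr (minimum count 10), scaled by TMM and tested with edgeR 4.0.16 (quasi-likelihood F test, R 4.3.3, all 12 samples, line as the only term), with Benjamini-Hochberg adjustment over 18626 genes. A gene is said to have risen or fallen at an adjusted p under 0.1, and the 2-fold cutoff of the study was counted apart. SE is the absolute log2 fold change over the root of F. CPM are counts per 1000000 counts in tested genes, scaled by TMM. A count of 3 is 0.0691 to 0.102 CPM, which covers counting error only. For genes whose libraries did not overlap between lines, the exact two-sided permutation test of mean CPM gave p = 0.0286, the smallest that 4 against 4 allows. On simulated counts for K/VP.5 against K562 (18626 genes), 186 of 200 altered genes were recovered and 24 unaltered genes were called. That recovery is over all altered genes together, and recovery at shifts as small as those of most members was not tested. No pair of libraries agreed within sampling noise.

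Named genes were ATF4, members past 2-fold, the member with the largest change of each role group in each comparison, and, from other lists, genes past 2-fold with at least 10 CPM. Further genes of the other lists were named after their values were seen. Members and lists were chosen with earlier results of these data known. Same-numbered samples of K562/SSedit-2 and K562 deviated together (r of deviations from the line means 0.135 to 0.292 in all 4 pairs, a check on the data, not the labels). Alternatives were DESeq2 1.42.0 and limma voom (limma 3.58.1), other scalings and filters, the 2 compared lines alone, a replicate block, an adjusted p under 0.05 and leaving out each replicate.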

Additional observations from a re-analysis of the deposited data

Results flagged for a closer look

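In 102 groups of 4 libraries (34 genes in 3 lines), 8 held a library whose gap to the nearest other was past Dixon's critical value as a share of the group's range, and chance alone flags about 1 in 20 groups. K562 replicate 1 accounts for 3 of them. ATF6 read 113 CPM there against 74.3 to 76.9 CPM in the other K562 libraries, GARS1 235 against 189 to 194 CPM, and NARS1 236 against 329 to 343 CPM. ASNS in K562 replicate 2 read 2.46 CPM against 1.65 to 1.72 CPM. In K/VP.5, PSAT1 read 25.5 CPM in replicate 2 against 20.3 to 21.0 CPM, and SEL1L 34.9 CPM in replicate 4 against 36.9 to 37.2 CPM. In K562/SSedit-2, ATF3 read 7.58 CPM in replicate 2 against 5.61 to 5.88 CPM, and MTHFD2 202 CPM in replicate 1 against 222 to 226 CPM. Without K562 replicate 1, ATF6 passed the test in K/VP.5 (log2 fold change 0.15, adjusted p = 0.085) and in K562/SSedit-2 (0.19, adjusted p = 0.088).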

How the results depend on the processing

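In K/VP.5 against K562, 13 to 16 members were called with other scalings, filters, tests and fits and 13 to 17 with a replicate left out, against 15. At least 2-fold change was met by 2 members with upper-quartile scaling or a filter of 1 CPM in 4 samples, and by 1 to 2 with a replicate left out. In K562/SSedit-2 against K562 the count of 4 was 7 with DESeq2, 10 with no filter, 8 with the replicate block and 2 at an adjusted p under 0.05, and 2 to 8 with a replicate left out. Over all genes there, DESeq2 called 1113 higher and 1714 lower of 18626. With no filter these were 754 and 2007 of 42540, and the block called 16.4%. At least 2-fold, the count of members there stayed at 0 in all. Against K/VP.5 the count of 19 was 15 to 22, or 14 to 17 with a replicate left out, and the count of at least 2-fold 2 to 3. Counts of members with ranges apart in K562/SSedit-2 against K562 were 4 to 7 with a replicate left out. In that comparison the further ATF4 targets called were 10 with no filter, 10 with the replicate block, and 3 to 8 with a replicate left out. The further ER genes were 2 with only the 2 lines in the fit, 3 at an adjusted p under 0.05, and 2 to 10 with a replicate left out. The further tRNA synthetases were 1 with DESeq2's size factors, upper-quartile scaling, the 1 CPM filter, only the 2 lines or an adjusted p under 0.05, and 1 to 4 with a replicate left out. The eIF2 genes, 3 in the fit over all samples with IMPACT counted, were 0 with only the 2 lines, 1 at an adjusted p under 0.05, and 0 to 3 with a replicate left out. In the other comparisons replicate numbers did not meet the pairing criterion (r -0.003 to 0.269 for K/VP.5 against K562, -0.095 to 0.161 for the clones). There the block moved no count of members by over 1.5 times. The causes were not tested.

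No log2 fold change that changed sign under an alternative had passed the test in the fit over all samples. In K/VP.5 against K562, upper-quartile scaling gave 0.018 for ERN1 and 0.015 for PYCR1. ATF6 (0.00) was -0.0018 with DESeq2's size factors, -0.0021 with DESeq2, -0.022 with no filter and -0.0064 with the 2 lines alone. DDIT4 (0.00) was -0.0091, -0.008, -0.030 and -0.018 in these, -0.22 with limma voom and -0.17 with the replicate block. In K562/SSedit-2 against K562, MTHFD2 was 0.019 with upper-quartile scaling, 0.0045 with the 1 CPM filter and 0.0002 with the 2 lines, SDF2L1 0.013 with upper-quartile scaling, 0.015 with limma voom, 0.0017 with the 1 CPM filter and 0.0044 with the replicate block. With no filter ATF6 was -0.016, GARS1 -0.025, NARS1 -0.005 and SEL1L -0.02. Against K/VP.5, upper-quartile scaling gave -0.036 for ERN1, -0.028 for ATF6 and -0.027 for PYCR1, and the 1 CPM filter -0.0046 for ERN1.

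With a replicate left out, signs changed in K/VP.5 against K562 for ATF6 (-0.077 to 0.15), TRIB3 (-0.036 to 0.23), DDIT4 (-0.30 to 0.34), PHGDH (-0.043 to 0.12) and ASNS (-0.14 to 0.23). In K562/SSedit-2 against K562 they changed for ATF6 (-0.044 to 0.19), CEBPG (-0.024 to 0.12), DDIT4 (-0.53 to 0.10), MTHFD2 (-0.037 to 0.026), CARS1 (-0.094 to 0.034), GARS1 (-0.027 to 0.087), WARS1 (-0.15 to 0.035), NARS1 (-0.087 to 0.075), SDF2L1 (-0.14 to 0.13), SEL1L (-0.037 to 0.096) and HERPUD1 (-0.11 to 0.073). Against K/VP.5 they changed for ERN1 (-0.027 to 0.064), ATF6 (-0.028 to 0.079), ATF3 (-0.28 to 0.14), CEBPB (-0.20 to 0.0093), DDIT4 (-0.56 to 0.11) and ASNS (-0.091 to 0.34). Ranges of replicates, counts in other lists and the rank of DDIT4 were tried under alternatives chosen after seeing the data. Leaving out a library also brought members past the test. In K/VP.5 against K562 these were ATF6, SESN2, PYCR1 and WARS1 without K562 replicate 1, SDF2L1 without K562 replicate 2, SHMT2 without K562 replicate 3 or 4 or K/VP.5 replicate 2, and ATF3 and CHAC1 without K/VP.5 replicate 1. For K562/SSedit-2 against K562 they were EIF2AK1, ATF6, XBP1 and HYOU1 without K562 replicate 1, TRIB3 without K562 replicate 3, XBP1, ATF4 and TRIB3 without K562 replicate 4, and ATF4, CEBPB and TRIB3 without K562/SSedit-2 replicate 2. Against K/VP.5 they were PPP1R15A without K/VP.5 replicate 1, EIF2AK3 without K/VP.5 replicate 2, GARS1 without K562/SSedit-2 replicate 1 and PHGDH without K562/SSedit-2 replicate 2. Other settings moved calls of members as well. In K/VP.5 against K562, SESN2, ALDH18A1 and WARS1 passed with upper-quartile scaling and SDF2L1 with no filter. For K562/SSedit-2 against K562, XBP1, ATF4, CEBPB, TRIB3, CHAC1, SESN2 and DDIT4 passed with no filter, and ATF4, DDIT3 and TRIB3 with DESeq2. Against K/VP.5, EIF2AK4 passed with upper-quartile scaling, the 1 CPM filter or the 2 lines alone, PPP1R15A with the 2 lines alone or the block, SDF2L1 with no filter or the 2 lines alone and DDIT4 with no filter, while ALDH18A1 and SEL1L were lost with no filter, WARS1 with DESeq2, and NARS1 with DESeq2, its size factors or the 1 CPM filter.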

Other observations

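Outside the 34 genes, VEGFA, a growth factor induced by low oxygen and by ATF4, had the replicate order of DDIT4 in all 3 lines. It read 109, 204, 172 and 136 CPM in K562 replicates 1 to 4, 130, 298, 239 and 206 CPM in K/VP.5 and 124, 216, 193 and 143 CPM in K562/SSedit-2. With at least 10 CPM on average, DDIT4 and VEGFA were the 2 tested genes with this order in every line. The gene was named after its values were seen.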
